A study of Mus musculus with 48 samples.

Results

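The 39 genes described here are interferon-stimulated genes (ISGs), that is, genes whose transcription rises when a cell responds to interferon. They are a list of gene symbols, drawn up with earlier results of these data known, and all 39 were found among the 55450 gene identifiers of the tables. RNA-seq libraries were made from preadipocytes of inguinal white adipose tissue (iWAT) and from mouse embryonic fibroblasts (MEFs), both from C57BL/6 wild-type (WT) mice or from DKO mice, which lack the nucleosome-binding proteins HMGN1 and HMGN2 (Hmgn1-/- and Hmgn2-/-). The preadipocytes came from adult mice of 8 to 12 weeks, and the MEFs came from embryos and were used within passage 3. Both genotypes received the same differentiation medium with insulin, dexamethasone, IBMX, T3 and rosiglitazone, for 4 days in preadipocytes and 8 days in MEFs. The same maintenance medium with insulin and T3 followed. Where a step between days spans this change of medium, day and medium cannot be told apart. Preadipocytes were collected at days 0, 3, 6 and 9 and MEFs at days 0, 4, 8 and 12, day 0 being before induction, with 3 libraries per genotype and day and 48 in all. The DKO mice carry the deletions in every cell, so what the loss did in the cultured cells and what it did earlier in the animal cannot be told apart. The study followed how the loss of the HMGN proteins alters the conversion of these cells to beige-like adipocytes, and the question asked here is how the ISGs behaved on the way.

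Type I interferons bind a receptor made of IFNAR1 and IFNAR2, whose kinases JAK1 and TYK2 switch on ISGF3, a factor that contains STAT2 and IRF9 and binds the interferon-stimulated response element (ISRE) in ISG promoters. The response to interferon gamma acts through another element, the gamma-activated sequence. Many ISGs are also transcribed at a low level without infection, and their products sense viral nucleic acid, block translation of viral RNA or restrict viral assembly. The 39 genes were grouped into signal transducers and transcription factors (Stat2, Irf9, Irf7, Irf1), sensors of foreign nucleic acid (Ifih1, Ddx58, Dhx58, Eif2ak2, Zbp1), the IFIT family (Ifit1, Ifit2, Ifit3, Ifit3b), the OAS family (Oas1a, Oas2, Oas3, Oasl1, Oasl2), interferon-inducible GTPases (Mx1, Mx2, Gbp2, Gbp3, Gbp7, Igtp, Irgm1), ISG15 and ubiquitin-type modification (Isg15, Usp18, Trim25, Parp9, Parp14), and other antiviral or interferon-induced proteins (Bst2, Rsad2, Cmpk2, Rtp4, Isg20, Ifi27, Ifi35, Ifi44, Xaf1).

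Promoter sequences were searched for the letters that interferon-activated factors read. A RefSeq promoter window on GRCm38.p6, from 250 bases before to 50 bases after the start, was at hand for 29 of the 39 genes and was not used here for Usp18, Zbp1, Parp9, Oas2, Parp14, Dhx58, Rtp4, Ifi27, Mx1 and Mx2. The ISRE core GAAANNGAAA, searched on both strands, stood in a window of 17 of the 29 genes (58.6%), against 1079 of 27025 genes in all (3.99%). The gamma-activated sequence TTCNNNGAA, a palindrome, stood in 9 of 29 (31.0%), against 2582 of all genes (9.55%). The windows of the genes whose DKO difference at preadipocyte day 6 passed the test and that hold an ISRE core before the start are shown here, with those of Ifit3, the near copy of Ifit3b, and of Isg15. Each sequence is the 200 bases before the annotated start, 5′ to 3′ on the gene's strand, and capitals mark the ISRE core letters, on either strand. The Oas1a stretch is chr5:120907526-120907725 (minus strand), that of Ifit3b chr19:34607757-34607956 (plus), of Ifit3 chr19:34583329-34583528 (plus), of Gbp7 chr3:142530136-142530335 (plus), of Igtp chr11:58199356-58199555 (plus), of Bst2 chr8:71537473-71537672 (minus) and of Isg15 chr4:156200819-156201018 (minus).
Oas1a: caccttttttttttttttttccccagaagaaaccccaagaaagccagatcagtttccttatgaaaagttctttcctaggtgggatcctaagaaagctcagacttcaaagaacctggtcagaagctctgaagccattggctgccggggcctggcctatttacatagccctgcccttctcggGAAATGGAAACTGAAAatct
Ifit3b: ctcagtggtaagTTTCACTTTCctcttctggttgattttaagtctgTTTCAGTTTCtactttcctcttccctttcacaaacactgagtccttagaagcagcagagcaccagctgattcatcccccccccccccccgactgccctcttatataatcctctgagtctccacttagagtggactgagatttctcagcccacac
Ifit3: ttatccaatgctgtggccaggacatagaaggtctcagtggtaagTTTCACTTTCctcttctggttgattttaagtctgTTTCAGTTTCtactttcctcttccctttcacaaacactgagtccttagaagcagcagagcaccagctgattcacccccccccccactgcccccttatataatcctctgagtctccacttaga
Gbp7: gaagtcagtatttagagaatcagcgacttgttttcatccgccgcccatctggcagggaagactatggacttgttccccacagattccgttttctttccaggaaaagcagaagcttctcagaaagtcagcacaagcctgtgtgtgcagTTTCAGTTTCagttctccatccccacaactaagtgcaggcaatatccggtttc
Igtp: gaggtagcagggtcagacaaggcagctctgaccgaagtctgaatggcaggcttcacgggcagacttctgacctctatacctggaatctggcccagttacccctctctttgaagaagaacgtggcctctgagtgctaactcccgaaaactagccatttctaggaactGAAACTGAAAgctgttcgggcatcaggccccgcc
Bst2: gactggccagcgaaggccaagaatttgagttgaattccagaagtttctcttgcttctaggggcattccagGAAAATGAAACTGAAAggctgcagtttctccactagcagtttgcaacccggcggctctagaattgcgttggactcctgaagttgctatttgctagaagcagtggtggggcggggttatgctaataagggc
Isg15: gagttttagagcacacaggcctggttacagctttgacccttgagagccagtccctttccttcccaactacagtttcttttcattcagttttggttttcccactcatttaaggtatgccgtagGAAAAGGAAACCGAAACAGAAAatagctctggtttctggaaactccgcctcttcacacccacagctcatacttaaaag
In Oas1a the first letters of 2 overlapping copies lie 20 and 14 bases before the start, and in Bst2 130 and 124 bases before it. Ifit3 and Ifit3b each hold 2 copies, 156 and 122 bases before the start in Ifit3 and 188 and 154 in Ifit3b, within a stretch the promoters share. Isg15 holds 3 overlapping copies, 78, 72 and 66 bases before the start, whereas Gbp7 and Igtp hold 1 each, at 53 and 34. The windows of Ifih1 and Ddx58 hold the core only after the start, 33 and 3 bases in, and those of Trim25, Irf7 and Stat2 hold none in these 200 bases. A match of letters is no evidence that a factor bound there.

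The sequencing gave 18962483 to 36006696 counts per library, and levels are given as CPM (counts scaled to a library of 1000000), so the lowest ISGs rest on a few reads per library. Hmgn2 fell in DKO in all 8 comparisons, from group means of 43.3 to 178 CPM in WT to 0 to 0.124 CPM in DKO. Hmgn1 kept group means of 81.5 to 105 CPM in DKO against 83.8 to 187 CPM in WT and was called lower at preadipocyte day 3 and MEF day 4. The counts do not resolve exons, so they do not check the deleted part of Hmgn1. Markers fixed for the labelled cells (7 fibroblast and preadipocyte genes) summed to 12113 to 17349 CPM in the preadipocytes at day 0 and to 4356 to 10494 CPM in the MEFs at day 0. The 13 markers of macrophages and other leukocytes summed to 41.4 to 513 CPM in preadipocytes at day 0, to 2370 to 11709 CPM at day 6 and to 5936 to 8457 CPM in MEFs at day 0, with Siglech, Cd3e and Cd79a at no more than 0.221 CPM in any library. In MEFs, 4 libraries were taken to stand apart on the 7 adipocyte markers: WT replicate 1 and DKO replicate 3 of day 4 were the highest of their groups (5446 and 6821 CPM) and WT replicate 2 and DKO replicate 3 of day 8 the lowest (3486 and 4020 CPM). For DKO at day 4 this is uncertain, since its libraries read 4279, 2574 and 6821 CPM and were spread evenly. Results at days 4 and 8 are given with and without those of these 4 libraries that a comparison holds. In the DKO comparisons of days 4 and 8, and in the WT step between these days, this takes 1 library out of each group.

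**Figure D1:**
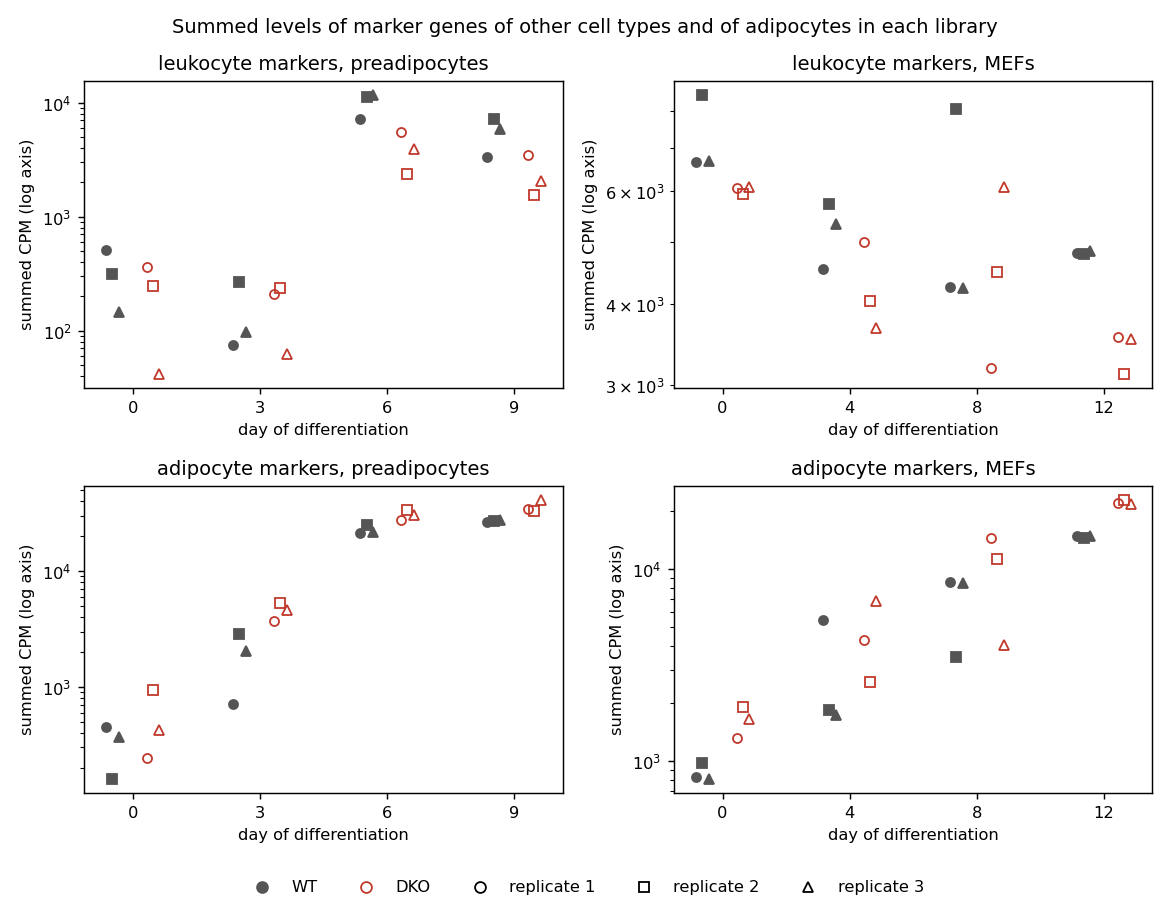
Summed CPM (log axis) of the 13 leukocyte markers and the 7 adipocyte markers in each library, by day and cell type, with filled symbols for WT and open symbols for DKO. At preadipocyte day 6 the leukocyte sums ran from 7147 to 11709 CPM in WT and from 2370 to 5520 CPM in DKO.

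Averaged over the 39 genes, ISG levels were highest in undifferentiated WT cells, lowest at the first day after induction and in between at the last day. The measure is the mean over the genes of log2(CPM + 0.5), and its group means with SD over 3 libraries were 4.25 ± 0.42, 2.23 ± 0.36, 3.06 ± 0.59 and 3.65 ± 0.86 in WT preadipocytes at days 0, 3, 6 and 9, against 3.57 ± 0.01, 1.93 ± 0.22, 2.09 ± 0.39 and 3.30 ± 0.74 in DKO. In MEFs at days 0, 4, 8 and 12 the WT means were 4.48 ± 0.13, 2.94 ± 0.42, 2.99 ± 0.66 and 3.36 ± 0.01, and the DKO means were 3.66 ± 0.16, 2.76 ± 0.21, 2.76 ± 0.53 and 3.39 ± 0.16. The DKO mean was the lower of the pair in 7 of the 8 settings, and MEFs at day 12 were the exception. By single genes, 19 of the 39 had their highest group mean in WT MEFs at day 0 and 14 in WT preadipocytes at day 0, while 19 had their lowest in DKO preadipocytes at day 3 and 14 at day 6. In a bulk library fewer expressing cells and less RNA per cell cannot be told apart, which holds for every level given here.

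**Figure D2:**
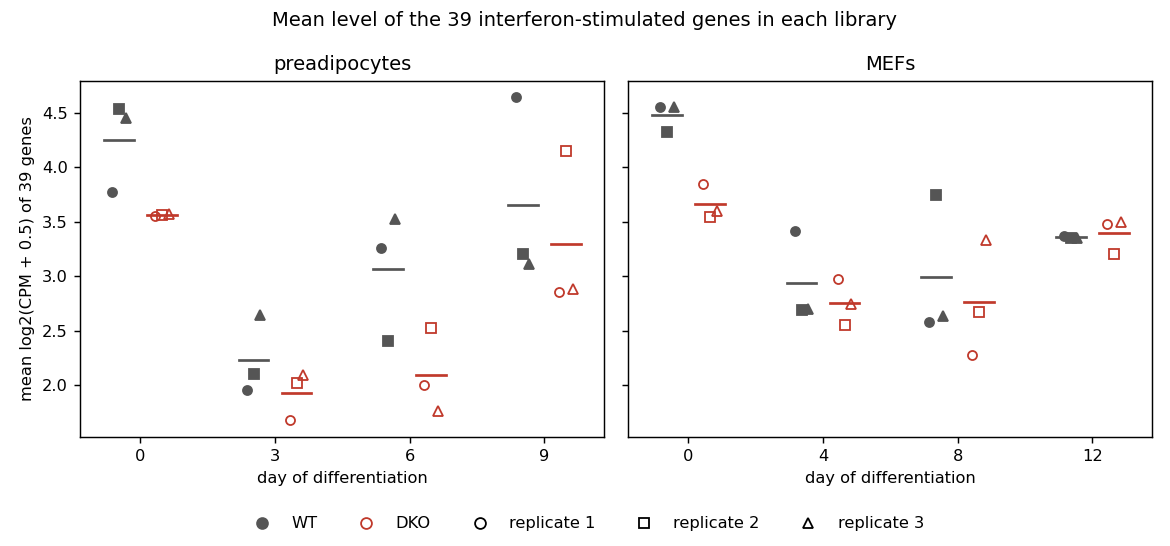
Mean log2(CPM + 0.5) of the 39 ISGs in each library against the day, for preadipocytes and MEFs; filled symbols are WT, open symbols DKO, bars group means and symbol shape the replicate number. At preadipocyte day 9, 1 WT library (4.64) and 1 DKO library (4.15) lie above the other 4, which lie between 2.86 and 3.20.

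The genes differed widely in level. Per kilobase of exon and over all libraries, Ifi27, which encodes a small interferon-induced membrane protein, was the highest at 136 CPM per kilobase, followed by Bst2 (tetherin, which holds budding virus at the cell surface) at 44.5 and Isg15 (a ubiquitin-like protein) at 14.3. Mx1, a gene of the dynamin-like GTPases, was the lowest at 0.126 CPM per kilobase, with Oas3 (0.312) and Mx2 (0.363) next. Within the roles, the genes with the highest and lowest mean CPM, ranked without regard to length, are given with their CPM per kilobase. They were Ifit3 (12.5 CPM per kilobase) and Ifit3b (1.56) among the IFITs, which bind viral RNA ends. In the OAS family, most of whose members make the 2-5A messenger that activates RNase L, they were Oasl2 (2.36) and Oasl1 (0.620). Among the sensors they were Eif2ak2 (PKR, which stops translation on double-stranded RNA, 10.6) and Zbp1 (a Z-nucleic acid sensor, 1.32). Stat2 (8.46) and Irf7 (2.75), the amplifier of interferon production, marked the ends of the transcription factors, Trim25 (a ubiquitin ligase acting with RIG-I, 13.6) and Usp18 (the ISG15 protease, 1.74) those of the modifiers, and Irgm1 (5.23) and Mx1 those of the GTPases. In the mixed group Ifi27 stood against Cmpk2, a mitochondrial nucleotide kinase, at 0.424. Ranked per kilobase, Isg15 stood above Trim25, Oas1a (3.30) above Oasl2, and Oas3 below Oasl1.

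Across the 16 groups, Oas2 had the largest ratio between its highest and lowest group mean CPM, the lowest resting on a few reads, from 0.0978 ± 0.0527 in DKO preadipocytes at day 3 to 30.8 ± 3.84 in WT MEFs at day 0 (SD, n = 3). Ifit3b ran from 0.0359 ± 0.0315 in DKO preadipocytes at day 6 to 9.21 ± 0.847, again in WT MEFs at day 0. Irf1, a transcription factor downstream of both interferon classes, had the smallest ratio, between 16.5 ± 1.35 and 26.2 ± 1.93 CPM. Zbp1 was highest in WT preadipocytes at day 0 (27.7 ± 13.8 CPM), and Isg20, a nuclease that degrades viral RNA, in WT preadipocytes at day 9 (23.4 ± 3.96). Of the 39 genes 6 had their highest mean outside undifferentiated WT cells, among them Ifi27 with 410 ± 39.8 CPM in DKO preadipocytes at day 9, the others being Isg20, Ifih1, Oas3, Ifi35 and Ifit2. Some genes share sequence with a close copy: 57.6% of the 50-base fragments of Oas1a also occur in other genes, mainly Oas1g, 51.2% of those of Ifit3 and 45.0% of those of Ifit3b, mainly in each other, and 12.3% to 13.6% of those of Rtp4, Gbp7 and Igtp, so the split of reads between copies is uncertain. Rtp4, Gbp7, Igtp, Irf9 and Parp14 also overlap another gene on the same strand.

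**Figure D3:**
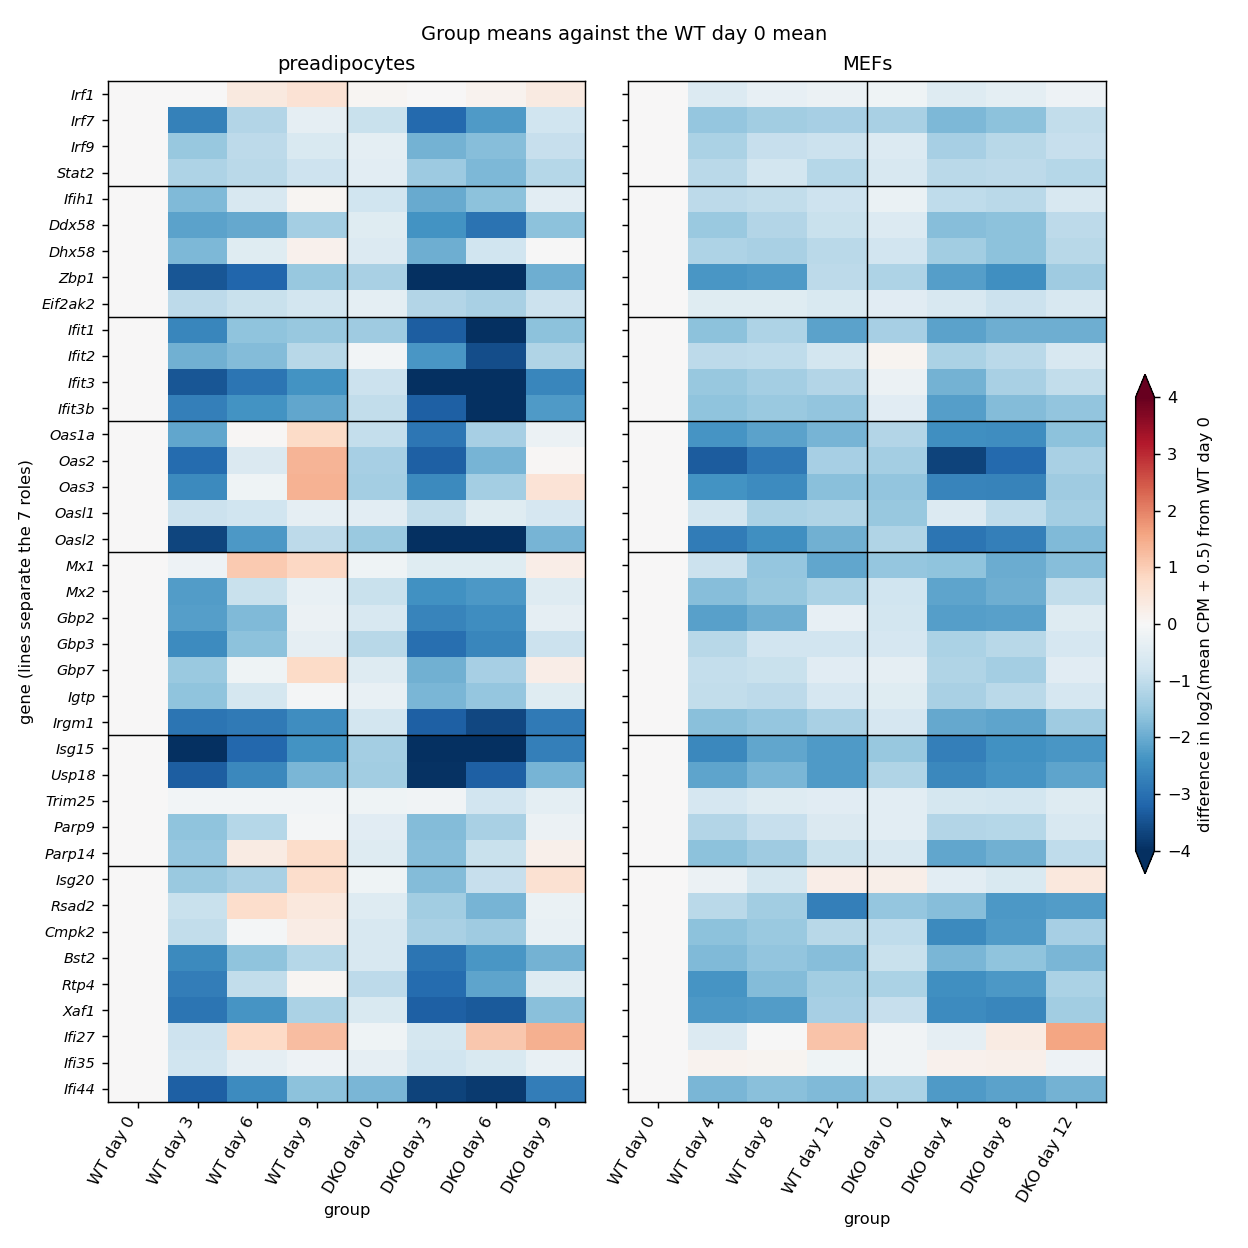
Level of each of the 39 genes (rows, by role) in the 8 groups of each cell type (columns), coloured by log2(mean CPM + 0.5) minus its value in WT cells of that type at day 0. In preadipocytes the columns of day 3 and of DKO day 6 are the lowest. At WT day 9 Ifi27, Isg20, Oas1a, Oas2, Oas3, Parp14 and Gbp7 are among the rows above WT day 0.

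In WT preadipocytes the ISGs fell together on induction. In the comparisons that follow, a gene was called when the Benjamini-Hochberg adjusted p of edgeR's quasi-likelihood test over all tested genes was under 0.05 and the fold change at least 1.5, and fold changes are log2 with their SE. From day 0 to day 3, 33 of the 38 tested ISGs fell and all 38 estimates were negative, with a median of -2.29, where 12.2% of all genes fell and the median over all genes was 0.01. Irgm1, a GTPase that guards membranes against intracellular pathogens, went from 120 ± 37.8 to 15.3 ± 1.35 CPM (log2 fold change -3.02 ± 0.25, edgeR adjusted p = 0.000629). Ddx58, which encodes the RNA sensor RIG-I, went from 87.6 ± 20.6 to 19.4 ± 1.70 CPM (-2.22 ± 0.19, edgeR adjusted p = 0.000563). Oas2 dropped from 5.24 ± 2.20 to 0.183 ± 0.0660 CPM (-4.81 ± 0.48, edgeR adjusted p = 0.000844) and Ifi27 from 154 ± 3.69 to 86.1 ± 10.5 CPM (-0.89 ± 0.09, edgeR adjusted p = 0.000968). The tested genes that were not called were Irf1, Oasl1, Trim25, Rsad2 and Cmpk2. Oas3 came down from 169 to 3 reads over the 3 libraries, a ratio of 59.8 with a 95% counting interval of 20.1 to 293. Of the 10 leukocyte markers tested in this step, 9 were negative with a median of -1.39 and 2 fell, and their part in the result was not tested.

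From day 3 to day 6, 12 of the 39 ISGs rose, where 21.9% of all genes rose, and all 39 estimates were positive with a median of 1.01 (-0.01 over all genes). In the same step all 10 tested leukocyte markers rose with a median of 5.94, and all 6 tested adipocyte markers with a median of 3.88, and their part in the result was not tested. Ifi27 went from 86.1 ± 10.5 to 270 ± 18.6 CPM (1.69 ± 0.11, edgeR adjusted p = 3.33e-05) and had stood at 154 ± 3.69 CPM at day 0. Oas2 reached 3.31 ± 0.651 CPM (4.14 ± 0.34, edgeR adjusted p = 6.65e-05) and Oas1a, the enzyme that gives the OAS family its name, 5.84 ± 1.3 from 0.969 ± 0.419 CPM (2.61 ± 0.35, edgeR adjusted p = 0.000512). Oas3 rose from 3 to 163 reads, a ratio of 52.1 with a 95% counting interval of 17.5 to 255 (edgeR adjusted p = 0.000488). The others that rose were Parp14, Dhx58, Bst2, Ifih1, Gbp7, Irf7, Rtp4 and Mx2, and without WT replicate 2 of day 6, the lowest of its group for 35 of the 39 genes, 19 genes rose. From day 6 to day 9 Isg20 rose from 5.47 ± 0.803 to 23.4 ± 3.96 CPM (2.10 ± 0.16, edgeR adjusted p = 4.16e-05), Gbp2, a GTPase that attacks pathogen vacuoles, from 6.59 ± 1.55 to 20.01 ± 4.09 (1.60 ± 0.21, edgeR adjusted p = 0.000928) and Parp9, a partner of the ligase DTX3L, from 19.5 ± 2.72 to 41.9 ± 15.9 (1.11 ± 0.28, edgeR adjusted p = 0.0298). These 3 were the only ISGs called among 39, where 11.2% of all genes rose, and 5 were called when the replicate numbers, which paired the libraries of these days, entered as a block. The leukocyte markers had a median of 0.05 with 1 called lower. The median over the 39 genes was 0.70, but without WT replicate 1 of day 9 it was -0.04 and 20 estimates were negative.

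In WT MEFs most ISGs fell on induction as well. From day 0 to day 4, 34 of the 39 ISGs fell with a median of -1.62, where 18.4% of all genes fell and their median was 0.04. Bst2 fell from 104 ± 4.52 to 30.4 ± 2.90 CPM (-1.86 ± 0.09, edgeR adjusted p = 1.95e-05), Oas1a from 24.8 ± 3.08 to 4.39 ± 0.398 (-2.58 ± 0.14, edgeR adjusted p = 2.52e-05) and Oas2 from 30.8 ± 3.84 to 2.61 ± 0.824 (-3.63 ± 0.23, edgeR adjusted p = 4.48e-05). Ifit2, which binds AU-rich RNA, fell from 40.1 ± 2.14 to 19.2 ± 1.94 CPM (-1.15 ± 0.09, edgeR adjusted p = 0.000101). Oasl1, Mx1, Isg20, Rsad2 and Ifi35 were not called. Without WT replicate 1 of day 4, the only library of this step among the 4 that stood apart, 37 genes fell with a median of -1.99. Of the 10 tested leukocyte markers 9 were negative with a median of -1.40 and 7 fell, and their part in the result was not tested.

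The later MEF steps turned on those libraries. Between days 4 and 8 edgeR called no ISG and no gene at all (0% of those tested), and DESeq2 called 0 ISGs. At an unadjusted p under 0.05 there was 1 ISG (2248 of 15345 genes in all), and the median over the ISGs was 0.19. Without the libraries of this step that stood apart, WT replicate 1 of day 4 and WT replicate 2 of day 8, 2 ISGs rose and 3 fell of 38. Their median was then -0.10, while 4176 genes were called in all. Without WT replicate 2 of day 8 alone the ISG median was -0.42. From day 8 to day 12, 6 ISGs rose, where 12.4% of all genes rose. Ifi27 went from 123 ± 2.55 to 275 ± 4.63 CPM (1.16 ± 0.05, edgeR adjusted p = 4.35e-05), Gbp2 from 3.68 ± 0.516 to 12.2 ± 0.734 (1.72 ± 0.14, edgeR adjusted p = 0.000281), Oas2 from 3.80 ± 1.65 to 11.9 ± 1.31 (1.64 ± 0.30, edgeR adjusted p = 0.00609) and Zbp1 from 0.625 ± 0.335 to 2.08 ± 0.347 (1.70 ± 0.40, edgeR adjusted p = 0.0148). Xaf1, a partner of the apoptosis inhibitor XIAP, and Isg20 rose too. The median of the ISGs was 0.24. Without WT replicate 2 of day 8, the only library of this step that stood apart, 26 rose, while the calls over all genes in either direction went from 3282 to 4270. Of the 10 tested leukocyte markers 4 rose, with a median of 0.50, and their part in the result was not tested.

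Before induction the share of ISGs that differed between the cell types was near that of all genes. In WT cells at day 0, 3 ISGs were higher and 10 lower in preadipocytes than in MEFs, where 18.7% of all genes were higher and 19.9% lower. Isg20 (14.1 ± 1.02 against 2.7 ± 0.196 CPM, 2.30 ± 0.13, edgeR adjusted p = 4.24e-06), Zbp1 (27.7 ± 13.8 against 4.88 ± 1.06, 2.41 ± 0.42, edgeR adjusted p = 0.00355) and Irgm1 (120 ± 37.8 against 58.2 ± 6.93, 0.95 ± 0.24, edgeR adjusted p = 0.0163) were higher. Oas1a was lower at 5.71 ± 0.753 against 24.8 ± 3.08 CPM (-2.21 ± 0.14, edgeR adjusted p = 9.16e-06), as was Parp14, a mono-ADP-ribosyltransferase, at 32.9 ± 5.91 against 76.3 ± 0.928 (-1.3 ± 0.12, edgeR adjusted p = 7.08e-05). Trim25 (-0.66 ± 0.08, edgeR adjusted p = 0.000224) and Cmpk2 (-1.73 ± 0.21, edgeR adjusted p = 0.000251) were lower, with Irf1, Gbp7, Oas2, Oas3, Rsad2 and Mx1. All 10 tested leukocyte markers were lower in preadipocytes, with a median of -4.88, and their part in the result was not tested. The cell types were deposited in separate tables, and cell type and table cannot be told apart.

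Against this course, the ISGs stood lower in DKO preadipocytes before induction, though no single gene passed the test. At day 0, 37 of the 38 tested ISGs had a negative DKO estimate with a median of -0.67, where 49.8% of all genes were negative and their median was 0.00. None was called by edgeR at day 0 (lowest adjusted p = 0.314), where 0.218% of all genes were called. DESeq2 called 8 ISGs among 145 genes in all, and limma-voom called 0 among 34. At an unadjusted p under 0.05, 28 ISGs were lower, against 3.93% of all genes, and in 18 every DKO library read below every WT library, against 6.10%. The difference followed 1 library in part: WT replicate 1 was the lowest of its group for 34 genes, and without it edgeR called 4 ISGs among 18 genes in all. All 10 tested leukocyte markers were negative with a median of -0.33 and none was called, their sums being 146 to 513 CPM in WT and 41.4 to 361 CPM in DKO, and their part in the result was not tested.

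By role at day 0, the OAS family had the lowest median (-1.53) and the transcription factors the one closest to 0 (-0.42). Oas2 read 2.86, 7.21 and 5.65 CPM in the WT libraries and 1.59, 2.01 and 1.79 in the DKO libraries (-1.56 ± 0.35, edgeR adjusted p = 0.314). Oasl2 read 26.3, 67.9 and 55.7 CPM in WT and 17.8, 16.2 and 18.5 in DKO (-1.53 ± 0.34, edgeR adjusted p = 0.326). In both genes the WT libraries spread widely and the DKO libraries lay close together below them. Ifih1, which encodes the RNA sensor MDA5, stood at 15.9, 27.1 and 24.5 CPM against 13.4, 11.7 and 12.9 (-0.84 ± 0.20, edgeR adjusted p = 0.357), and Usp18 at 9.72, 23.9 and 21.1 against 5.96, 6.18 and 7.85 (-1.47 ± 0.35, edgeR adjusted p = 0.374). The largest estimates belonged to Ifi44, an interferon-induced GTP-binding protein (WT 3.21, 14.2 and 11 CPM, DKO 2.10, 1.60 and 3.24, -2.05 ± 0.58, edgeR adjusted p = 0.459), and Oas3 (WT 0.923, 4.23 and 2.82, DKO 1.06, 0.670 and 0.423, -1.87 ± 0.60, edgeR adjusted p = 0.525). In these the groups overlapped, since WT replicate 1 lay among the DKO libraries. Irf1 alone had a positive estimate (0.07 ± 0.10).

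At day 3, when the ISGs were at their lowest, the estimates were small and none was called. Of 34 tested ISGs 33 were negative with a median of -0.42, where 51.3% of all genes were negative. edgeR called 0 at day 3, where 0.337% of all genes were called, and DESeq2 and limma-voom called 0 as well. Unadjusted, 5 were lower (4.74% of all genes), and in 5 every DKO library read below every WT library (6.34%). Oas2, Oas3, Mx1, Mx2 and Ifi44 had too few reads for the test. Irgm1 read 16.8, 14.2 and 14.8 CPM in WT and 11.1, 12.3 and 12.6 in DKO (-0.37 ± 0.11, edgeR adjusted p = 0.246), and Oasl2 1.70, 3.74 and 5.04 in WT and 1.00, 1.54 and 1.95 in DKO (-1.25 ± 0.44, edgeR adjusted p = 0.316). Irgm1 separated the groups and Oasl2 did not. Ddx58 (19.4 ± 1.70 against 16.4 ± 1.22 CPM, -0.27 ± 0.10, edgeR adjusted p = 0.358) and Gbp3 (3.14 ± 0.844 against 2.05 ± 0.272, -0.64 ± 0.25, edgeR adjusted p = 0.371) had the next smallest p-values. Oas1a had the largest estimate on few reads, with 0.485, 1.20 and 1.22 CPM in WT and 0.112, 0.836 and 0.0829 in DKO (-1.55 ± 0.84, edgeR adjusted p = 0.536). Without WT replicate 3 the median moved to -0.14 and 22 of 34 estimates were negative.

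Day 6 was the only day at which edgeR called single ISGs lower in DKO preadipocytes. Its test of whether the DKO effect differed between days 0 and 6 called no ISG, so a difference between these days was not found. Of 35 tested ISGs 10 fell and none rose, and 32 estimates were negative with a median of -1.09. Over all genes 11.6% were called and 6.53% fell at day 6, 51.6% of estimates were negative and the median was -0.01. Unadjusted, 23 ISGs were lower against 18.3% of all genes, and in 12 every DKO library read below every WT library, against 19.4%. All 7 roles had a negative median, from -3.02 in the IFIT family and -1.64 in the OAS family to -0.74 in the transcription factors.

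Of the 5 sensors Ifih1 and Ddx58 fell, and Dhx58, Eif2ak2 and Zbp1 were not called. Ifih1 read 15.9, 11.1 and 15.6 CPM in WT and 7.29, 8.34 and 4.82 in DKO (-1.09 ± 0.22, edgeR adjusted p = 0.0134), and Ddx58 24.2, 13.2 and 24.9 in WT and 10.6, 12.3 and 9.37 in DKO (-0.97 ± 0.25, edgeR adjusted p = 0.0331). Trim25 gave the smallest p at 76.4, 67.1 and 84.8 CPM against 46.9, 52.8 and 44.5 (-0.68 ± 0.10, edgeR adjusted p = 0.00570). In all 3 genes every DKO library lay below every WT library. Parp14 stood at 40.2, 30.8 and 53.9 CPM in WT and 20.7, 15.97 and 16.1 in DKO (-1.26 ± 0.22, edgeR adjusted p = 0.0114). In the OAS family, Oas1a fell from 5.33, 4.88 and 7.32 CPM to 2.15, 2.47 and 1.32 (-1.59 ± 0.26, edgeR adjusted p = 0.00730) and Oas2 from 3.89, 2.61 and 3.42 to 1.17, 1.41 and 0.662 (-1.64 ± 0.30, edgeR adjusted p = 0.00954). Oas1a and Oas2 were also among the ISGs with the smallest p-values in the WT rise from day 3 to day 6. The 2 comparisons share the WT libraries of day 6, so they are not independent.

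Effectors made up the remainder of the 10 genes. Gbp7, a guanylate-binding protein, read 8.16, 6.21 and 12.5 CPM in WT and 3.62, 4.29 and 3.5 in DKO (-1.26 ± 0.26, edgeR adjusted p = 0.0139), and Igtp, an immunity-related GTPase, 8.24, 6.04 and 9.95 against 4.50, 4.64 and 3.78 (-0.93 ± 0.21, edgeR adjusted p = 0.0175). Bst2 read 31.7, 30.0 and 29.1 CPM in WT and 16.8, 25.2 and 12.6 in DKO (-0.76 ± 0.22, edgeR adjusted p = 0.0498). Ifit3b had the largest estimate (-5.00 ± 0.89, edgeR adjusted p = 0.00946) and rested on 32, 11 and 46 reads in WT and 1, 1 and 0 in DKO, a ratio of 36.5 with a 95% counting interval of 9.82 to 306. Its near copy Ifit3 read 6.20 ± 5.58 CPM in WT and 0.882 ± 0.409 CPM in DKO with overlapping groups (-2.85 ± 0.99, edgeR adjusted p = 0.0956). Rsad2 (viperin, which makes a chain-terminating nucleotide) had the second largest estimate and missed the threshold, with 2.95, 0.579 and 8.63 CPM in WT and 0.196, 0.294 and 0.331 in DKO (-3.88 ± 1.13, edgeR adjusted p = 0.0602). The WT libraries of the IFIT genes and Rsad2 spread over several fold, with WT replicate 2 lowest, and the groups of Rsad2 still did not overlap. Isg20 (0.36 ± 0.21), Ifi27 (0.25 ± 0.16) and Oasl1 (0.40 ± 0.59) had positive estimates and were not called, while Mx1, Mx2, Cmpk2 and Ifi44 were not tested.

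The number called at day 6 depended on single libraries. With DKO replicate 3 left out it was 5 and with WT replicate 3 left out 6. It rose to 16 when DKO replicate 2 was left out and to 23 when WT replicate 2 was left out, and DESeq2 called 23. Over all genes, where 1699 were called, these 4 refits without a library called 884, 720, 1649 and 1802 genes, and DESeq2 called 1854. Trim25, Oas1a, Oas2 and Ifit3b were called in all 14 alternatives, Ifih1, Gbp7 and Parp14 in 13, Igtp in 11, and Ddx58 and Bst2 in 5. The leukocyte markers were lower in DKO as well, with summed levels of 7147 to 11709 CPM in WT and 2370 to 5520 CPM in DKO. Of the 10 tested, 10 were negative with a median of -1.12, and Lyz2, the macrophage lysozyme, fell (-1.45 ± 0.30, edgeR adjusted p = 0.0188). Siglech was at 0 and Cd3e and Cd79a near 0. Within WT, replicate 2 was the lowest ISG library and its leukocyte sum of 11224 CPM was close to the highest. Within DKO, replicate 2 had the highest ISG mean (2.52 on the log2 scale, highest for 34 genes) and the lowest leukocyte sum (2370 CPM). The fibroblast markers summed to 1861 to 2347 CPM in WT and 729 to 874 CPM in DKO, with Col1a1, Thy1 and Pdgfrb lower and Dlk1 higher, and the adipocyte markers to 21127 to 25132 and 27582 to 33840 CPM. Their part in the result was not tested.

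**Figure D4:**
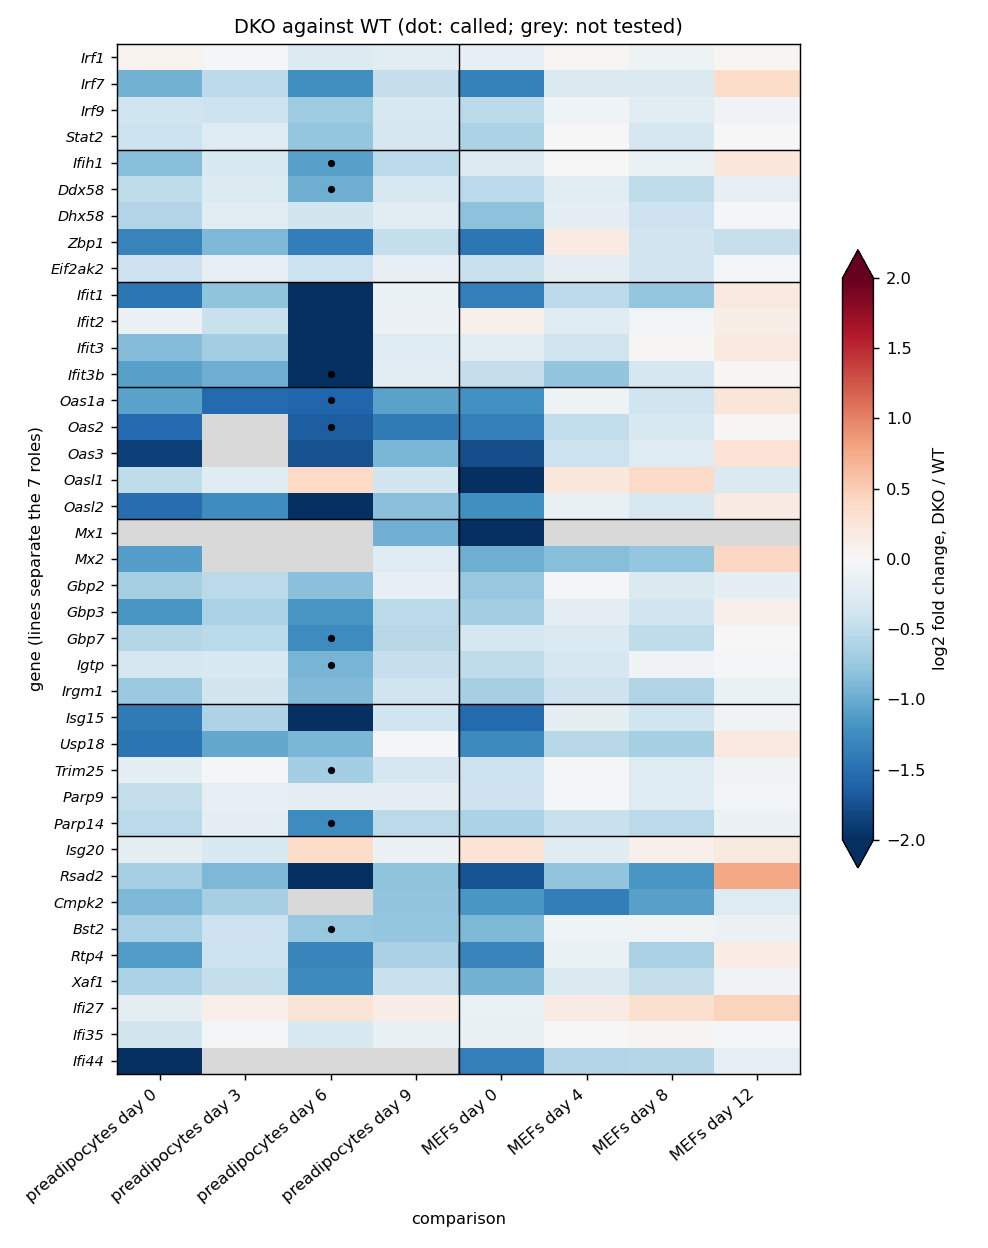
Log2 fold change of DKO against WT for each of the 39 genes (rows, by role) in the 8 comparisons (columns), with colours limited to ±2, a dot where the gene was called and grey where it was not tested. The 10 dots are all in the column of preadipocyte day 6, the column of MEF day 0 is as uniformly negative, and that of MEF day 12 is near 0.

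At day 9 ISG levels differed more between libraries of 1 genotype than between genotypes. WT replicate 1 and DKO replicate 2 were each the highest of their group for 39 of 39 genes. The ISG mean on the log2 scale was 4.64 in this WT library against 3.20 and 3.11 in the others, and 4.15 in this DKO library against 2.86 and 2.88. Their leukocyte sums, 3360 and 1538 CPM, were the lowest of their groups. With all libraries, 37 of 38 estimates were negative with a median of -0.38 (50.4% of all genes were negative). edgeR called 0 ISGs at day 9, where 1.24% of all genes were called. At an unadjusted p under 0.05, 1 was lower (12.9% of all genes), and none separated the groups (12.8%). DESeq2 called 1 ISG among 844 genes in all and limma-voom 0 among 153. Without WT replicate 1, 8 of 38 were negative with a median of 0.20, and without DKO replicate 2 the median was -1.04 and 1 gene was called. Oas2 read 27.7, 7.73 and 7.13 CPM in WT and 4.36, 9.22 and 2.69 in DKO (-1.40 ± 0.68, edgeR adjusted p = 0.239), and Oas1a 15.2, 8.51 and 6.27 in WT and 4.00, 7.06 and 3.39 in DKO (-1.07 ± 0.41, edgeR adjusted p = 0.156). In both the groups overlapped through DKO replicate 2. Irf1 (-0.23 ± 0.12, edgeR adjusted p = 0.264) and Bst2 (-0.78 ± 0.40, edgeR adjusted p = 0.264) had the next smallest p-values. The leukocyte markers at day 9 were negative in 10 of 10 with a median of -1.17, and their part in the result was not tested.

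In MEFs at day 0 the ISGs were lower in DKO in nearly every library, and again no gene passed the adjusted test. Of 39 estimates 37 were negative with a median of -0.76, where 47.9% of all genes were negative and their median was 0.01. In 32 genes every DKO library read below every WT library, against 10.3% of all genes, and 32 were lower at an unadjusted p under 0.05, against 4.84%. edgeR called none in MEFs at day 0 (lowest adjusted p = 0.0753), where 0.102% of all genes were called. DESeq2 called 19 ISGs among 170 genes in all and limma-voom 0 among 21, and edgeR without the filter on low counts called 8 among 44. Without DKO replicate 1, the highest of its group for 24 genes, edgeR called 17, while its calls over all genes went from 16 to 529.

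The MEF difference was spread over the roles, with medians from -1.37 in the OAS family to -0.35 in the IFIT family. Rtp4, a chaperone of receptors that also binds viral RNA, read 26.0, 19 and 26.3 CPM in WT and 9.92, 8.66 and 9.99 in DKO (-1.31 ± 0.16, edgeR adjusted p = 0.0753). Oasl1, a translation-repressing member of the OAS family, read 3.17, 2.26 and 3.44 CPM in WT and 0.706, 0.729 and 0.664 in DKO (-2.07 ± 0.26, edgeR adjusted p = 0.0753). In both genes the lowest WT library lay well above the highest DKO library. Usp18 read 15.1, 11.9 and 16.6 against 6.72, 5.80 and 5.44 (-1.28 ± 0.17, edgeR adjusted p = 0.0893) and Oas1a 27.0, 21.3 and 26.1 against 12.8, 9.27 and 9.99 (-1.21 ± 0.16, edgeR adjusted p = 0.0897). Mx1 had the largest estimate, at 1.92, 1.92 and 1.94 CPM in WT and 0.557, 0.152 and 0.292 in DKO (-2.54 ± 0.44, edgeR adjusted p = 0.190). Irf7 read 22.0, 17.1 and 24.5 CPM in WT and 9.92, 7.66 and 7.33 in DKO (-1.35 ± 0.18, edgeR adjusted p = 0.0914). Isg20 (0.27 ± 0.20) and Ifit2 (0.10 ± 0.18) were the genes with positive estimates. The leukocyte sums here were 6654 to 8457 CPM in WT and 5936 to 6091 CPM in DKO, 10 of 10 tested markers were negative with a median of -0.56 and 0 were called, and their part in the result was not tested.

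**Figure D5:**
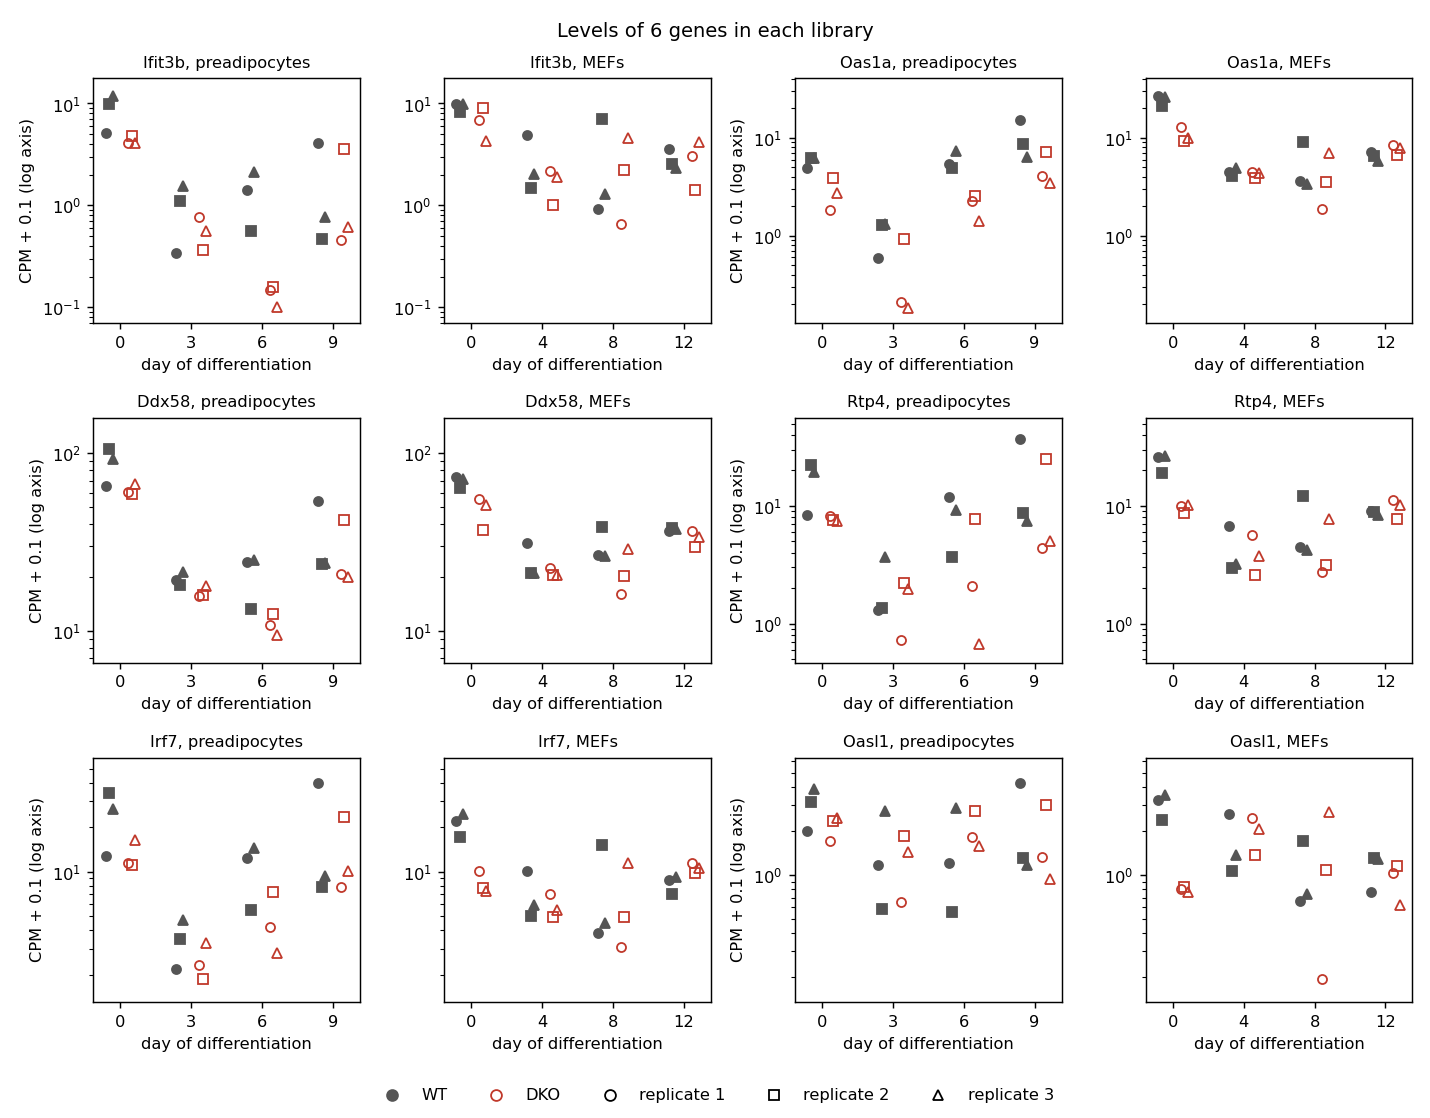
CPM + 0.1 (log axis) of Ifit3b, Oas1a, Ddx58, Rtp4, Irf7 and Oasl1 in each library, by day and cell type, filled for WT and open for DKO. In MEFs the groups of Rtp4, Irf7, Oas1a and Oasl1 are apart at day 0, and by day 12 the DKO libraries of Irf7 (9.73 to 11.4 CPM) lie above the WT libraries (6.98 to 9.07 CPM).

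At days 4 and 8 of the MEF course the differences were within the spread of the libraries. At day 4, 31 of 38 estimates were negative with a median of -0.21 (50.1% of all genes negative), and edgeR called 0, where 0.0905% of all genes were called. DESeq2 and limma-voom called 0, and 0 were lower at an unadjusted p under 0.05 (3.08% of all genes) or separated the groups (5.30%). Cmpk2 read 3.30, 0.780 and 0.596 CPM in WT and 0.773, 0.580 and 0.468 in DKO (-1.39 ± 0.69, edgeR adjusted p = 0.827) and Mx2 1.12, 0.426 and 0.526 against 0.610, 0.217 and 0.351 (-0.85 ± 0.54, edgeR adjusted p = 0.827). In both genes the highest library was WT replicate 1, the highest of its group for 35 genes and 1 of the libraries that stood apart, and the groups overlapped. Parp14 (-0.45 ± 0.20), Irgm1 (-0.41 ± 0.22) and Oas2 (-0.50 ± 0.28) had the same edgeR adjusted p of 0.827. Without WT replicate 1 and DKO replicate 3, the libraries of this day that stood apart, 15 of 38 were negative with a median of 0.04. Without WT replicate 1 alone 18 were negative with a median of 0.07.

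At day 8, 33 of 38 were negative with a median of -0.33 (50.9% of all genes negative), and edgeR called 0, where 0.0595% of all genes were called, as did DESeq2 and limma-voom. At an unadjusted p under 0.05, 0 were lower (4.70% of all genes) and 1, Ifi27, was higher, where 1295 of 15117 genes had such a p in either direction. In 0 every DKO library read below every WT library (6.75%). Ifi27 read 122, 125 and 120 CPM in WT and 176, 159 and 135 in DKO (0.32 ± 0.10, edgeR adjusted p = 0.512). Trim25 (-0.26 ± 0.13, edgeR adjusted p = 0.647), Gbp7 (-0.51 ± 0.26, edgeR adjusted p = 0.652) and Ddx58 (-0.51 ± 0.26, edgeR adjusted p = 0.653) followed. Rsad2 read 0.610, 6.65 and 0.470 CPM in WT and 0.185, 0.869 and 2.40 in DKO (-1.16 ± 1.24), and Cmpk2 1.17, 3.43 and 0.811 in WT and 0.324, 0.543 and 1.69 in DKO (-1.08 ± 0.79). Both peaked in WT replicate 2 and DKO replicate 3, the highest of their groups for 38 and 34 genes and those low in adipocyte markers. Without WT replicate 2 the median was 0.23 and 11 of 38 were negative, and without DKO replicate 3 it was -0.78 and 37 were negative. Without both, 1 of 35 was called lower with a median of -0.19.

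By day 12 the genotypes of the MEFs did not stand apart in these genes as a whole. Of 38 estimates 20 were negative with a median of -0.00 (49.9% of all genes), and the median was 0.02 with 1 fit over all days. No ISG was called by edgeR at day 12, where 7.98% of all genes were called, and DESeq2 and limma-voom called 0. Unadjusted, 1 was lower (20.5% of all genes) and 4 were higher, where 6480 of 15319 genes had an unadjusted p under 0.05 in either direction. In 3 every DKO library read below every WT library (23.0%) and in 3 above, for which the share of all genes was not counted. Ifi27 read 279, 270 and 275 CPM in WT and 360, 396 and 361 in DKO (0.44 ± 0.04, edgeR adjusted p = 1.65e-06), and Irf7 8.69, 6.98 and 9.07 in WT and 11.4, 9.73 and 10.5 in DKO (0.36 ± 0.12, edgeR adjusted p = 0.0272). Both passed the adjusted p and were under the fold change of 1.5. Ddx58 (-0.17 ± 0.07, edgeR adjusted p = 0.0787) and Ifih1 (0.21 ± 0.09, edgeR adjusted p = 0.0847) came next. The largest estimates were those of Rsad2, at 0.839, 0.519 and 0.788 CPM in WT and 1.49, 0.727 and 1.38 in DKO (0.77 ± 0.35, edgeR adjusted p = 0.109), and Zbp1, at 2.43, 2.08 and 1.73 in WT and 1.38, 1.91 and 1.24 in DKO (-0.46 ± 0.25, edgeR adjusted p = 0.180). The groups of both genes overlapped. Leukocyte sums were 4782 to 4838 CPM in WT and 3115 to 3560 CPM in DKO at this day, and their part in the result was not tested.

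Whether the DKO effect differed between days was tested with an interaction term, which shares the day 0 libraries across days. In MEFs at day 12 against day 0, 10 ISGs were called, all with a positive interaction, where 1.17% of all genes were called higher. Of the 39 genes 38 had a positive interaction estimate with a median of 0.81, and 30 had an unadjusted p under 0.05, against 2542 of 16352 genes in all. The 10 were Irf7, Oas1a, Rtp4, Rsad2, Usp18, Ifit1, Oas3, Stat2, Mx1 and Oas2, and Irf7 had the smallest adjusted p (1.74 ± 0.23, edgeR adjusted p = 0.00521). None of the 10 tested leukocyte markers was called, and 9 had a positive estimate with a median of 0.21. Irf7, Oas1a and Rtp4 were called in all 16 alternatives. The count was 3 without WT replicate 1 or 3 of day 0, 4 or 5 without any WT replicate of day 12 or DKO replicate 1 or 3 of that day, and 19 without DKO replicate 1 of day 0, with 65 to 975 genes called in all against 232.

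The other interactions called no ISG by edgeR. In preadipocytes at day 3 against day 0, 0 of 38 ISGs had an unadjusted p under 0.05, against 996 of 15999 genes in all. At day 6 there were 6 of 39, against 3582 of 16236 genes, and DESeq2 called 2 ISGs. At day 9 there was 1 of 39, against 2556 of 16216 genes. The shares of all genes called by edgeR were 0.0125%, 3.49% and 0.0555%. At day 6 the estimate of Ifit3b was -3.89 and that of Trim25 -0.46, and the lowest adjusted p was 0.0536. In MEFs 11 ISGs had an unadjusted p under 0.05 at day 4 (1185 of 16436 genes in all) and 2 at day 8 (859 of 16374). The edgeR test called 0% of all genes in either. The DKO effect at day 0 was not found to differ between preadipocytes and MEFs. There 2 ISGs had an unadjusted p under 0.05 (1233 of 16581 genes in all) and none was called, where 0.0844% of all genes were called.

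Few other genes of the interferon pathway were called in DKO, where few genes of any kind were called in most comparisons. Over all genes 11.6% were called at preadipocyte day 6 (6.53% lower), 1.24% at preadipocyte day 9 and 7.98% at MEF day 12. In the remaining DKO comparisons the share was 0.0595% to 0.337%. The 21 interferon ligand genes had too few reads to be tested in any comparison, the highest count in a library being 7 reads, of Ifnz. Of the 6 receptor genes 0 were called in any DKO comparison. Ifnar1 went from 83.3 to 63.7 CPM in DKO preadipocytes at day 6 (-0.41 ± 0.07, edgeR adjusted p = 0.0101) and Ifnar2 from 55.8 to 42.2 (-0.42 ± 0.09, edgeR adjusted p = 0.0161), both under the fold change of 1.5. Of 9 kinases, STATs and IRFs 0 were called. Of the 9 sensing and adaptor genes found, Tmem173, which encodes the DNA-sensing adaptor STING, went from 19.5 ± 0.566 to 10.9 ± 1.93 CPM (-0.85 ± 0.14, edgeR adjusted p = 0.00629) and Ikbke, a kinase of IRF3 and IRF7, from 25.0 ± 0.556 to 13.97 ± 3.44 (-0.85 ± 0.16, edgeR adjusted p = 0.0114) in DKO preadipocytes at day 6. Ikbke fell at day 9 too (-0.60 ± 0.11, edgeR adjusted p = 0.0472), and Tlr9, an endosomal DNA sensor, in DKO MEFs at day 12 (-0.61 ± 0.17, edgeR adjusted p = 0.0100). Of 10 negative regulators and nucleic acid clearance genes 0 were called. Over the tested genes of these lists at preadipocyte day 6 the medians were -0.41 for the receptors, -0.25 for kinases, STATs and IRFs, -0.34 for sensing and adaptors and -0.44 for negative regulators, against -1.09 for the ISGs.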

How the data were processed

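RNA was measured in 48 libraries, 24 per cell type, grouped by the sample titles. According to the submitters' processing notes reads were handled with bcl2fastq 2.17, cutadapt 1.18, STAR 2.7.0f and RSEM 1.3.0 on mm10, and the study's methods name a stranded total RNA kit while the labels give polyA RNA. The authors deposited 1 table of RSEM expected counts per gene for each cell type, and 5.49% to 7.90% of the values per library were not whole and were rounded. RSEM divides reads shared by near copies by probability, which makes counts of such copies uncertain. All 55450 identifiers were found in GENCODE M21.

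Tests used edgeR 4.0.16 (R 4.3.3) with robust quasi-likelihood fits, TMM and filterByExpr on the libraries of each comparison, and calls needed a Benjamini-Hochberg adjusted p under 0.05 over all tested genes together with a fold change of at least 1.5. SE is the size of the log2 fold change divided by the square root of F. CPM levels were scaled by TMM over all 48 libraries, so levels and fold changes come from slightly different scalings. The scripts were tested on simulated data. Alternatives were DESeq2 1.42.0, limma-voom (limma 3.58.1) with quantile normalization, library size only, other filters, 1 fit over all days, no fold change threshold, a replicate block and leaving out each library. The counting intervals for low genes are exact 95% intervals of a ratio of Poisson counts and cover counting error only. Figures used matplotlib 3.10.9.

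The 39 genes, the roles, pathway and marker lists and the rule for named genes were chosen with earlier results of these data known. That rule named, per genotype comparison, every called gene up to 12 and at least the 4 smallest p-values, per day step and for the cell types the 4 smallest p-values per direction among called genes, the genes of highest and lowest mean CPM per role, and by library the 2 largest estimates per genotype comparison. Other genes named (Irf7 in MEFs, the copies of called genes, genes with estimates of the other sign) were chosen after their values were seen. The pathway gene Mb21d1 was not matched. The rule also named a pathway gene that is not reported here.

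Replicates were labelled separate samples, but nothing says that they came from separate animals or cultures, so p-values measure the spread between these samples. Over the 48 replicate pairs the chi-square per degree of freedom was 2.11 to 154, so none agreed within sampling noise. The spread differed by group, at 2.14 to 3.42 in MEF WT day 12 and 2.91 to 11.6 in MEF DKO day 12, against 97.9 to 154 in MEF DKO day 0. The p-values at MEF day 12 thus rest on a small spread between libraries. An exact permutation test of 3 against 3 cannot go below p = 0.1 and was not used. Same-numbered libraries deviated together in 1 comparison, WT preadipocytes at day 9 against day 6 (correlations of 0.474, 0.291 and 0.135), and the pairing comes from these correlations, not from the labels. Depth was 19809397 to 36006696 counts per library in preadipocytes and 18962483 to 33083213 in MEFs.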

Additional observations from a re-analysis of the deposited data

Results flagged for a closer look

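The DKO effect differed between days 0 and 12 in MEFs for 10 of the 39 genes, by the interaction term of edgeR's quasi-likelihood test. The values are differences of log2 fold changes, day 12 minus day 0, and each positive value says that the DKO estimate stood higher at day 12. Irf7 had 1.74 ± 0.23 (edgeR adjusted p = 0.00521), with a DKO estimate of -1.35 ± 0.18 at day 0 and 0.36 ± 0.12 at day 12. Its DKO libraries lay at 7.33 to 9.92 CPM against 17.1 to 24.5 CPM in WT at day 0, and at 9.73 to 11.4 CPM against 6.98 to 9.07 CPM at day 12, so the order of the genotypes turned. Oas1a had 1.49 ± 0.22 (edgeR adjusted p = 0.00716) and Rtp4 1.5 ± 0.23 (edgeR adjusted p = 0.00826), with estimates at day 12 of 0.25 ± 0.13 and 0.15 ± 0.13. Rsad2 had 2.53 ± 0.43 (edgeR adjusted p = 0.0132), Usp18 1.51 ± 0.26 (edgeR adjusted p = 0.0137), Ifit1 1.60 ± 0.31 (edgeR adjusted p = 0.0245) and Oas3 2.11 ± 0.42 (edgeR adjusted p = 0.0251). Stat2 had 0.67 ± 0.15 (edgeR adjusted p = 0.0450), with day 12 libraries at 40.8 to 42.3 CPM in WT and 37.6 to 45.3 CPM in DKO, and Oas2 had 1.43 ± 0.33 (edgeR adjusted p = 0.0486). Mx1 had 4.02 ± 0.91 (edgeR adjusted p = 0.0450) on few reads: the day 12 counts were 0, 5 and 2 in WT and 6, 3 and 8 in DKO, against 62, 57 and 53 and 15, 5 and 11 at day 0. The WT libraries of Irf7 read 22.0, 17.1 and 24.5 CPM at day 0 and 8.69, 6.98 and 9.07 at day 12. The count of called genes depended on libraries of both days, being 3 without WT replicate 1 or 3 of day 0, 4 or 5 without any WT replicate or DKO replicate 1 or 3 of day 12, and 19 without DKO replicate 1 of day 0.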

How the results depend on the processing

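Counts of called ISGs stayed within 1.5 times the reported count in 108 of 120 alternatives and in 150 of 174 refits without 1 library. A count of 0 that stayed 0 was included as within, and many reported counts were 0. The count moved further in 4 of 6 refits for DKO preadipocytes at day 6 and in 8 of 12 for the MEF day 12 interaction. It did so in 0 of 6 for the first WT step of each cell type. The genes called in DKO preadipocytes at day 6 and in the MEF day 12 interaction gave 300 values over the alternatives. Of these, 220 kept their direction and side of the threshold, 80 were no longer called and 0 reversed. Genes named in other comparisons were not part of this count. DESeq2 called 8 ISGs in preadipocytes at day 0 (145 genes in all), 23 at day 6 (1854) and 1 at day 9 (844). It called 19 in MEFs at day 0 (170) and 7 in the WT preadipocyte step from day 6 to day 9 (2530). In the interactions of preadipocyte day 6 and MEF day 12 it called 2 and 17 ISGs. Without the filter on low counts 8 were called in MEFs at day 0 (44 genes in all) and with 1 fit over all days 1 (134). Without the fold change threshold 2 were called at MEF day 12 (5062), and with library size only 1 in the interaction of preadipocyte day 6. The replicate block gave 5 in the WT preadipocyte step from day 6 to day 9, and 10 in DKO preadipocytes at day 6 and 0 in MEFs at day 0, as reported. Elsewhere same-numbered libraries did not pair. The 4 MEF libraries that stood apart were chosen after seeing the data. Without those of them that a comparison held, 1 ISG was called in DKO at day 8, 5 in the WT step from day 4 to day 8 and 26 from day 8 to day 12. Leaving out 1 library gave 0 to 4 in DKO preadipocytes at day 0 (4 without WT replicate 1), 5 to 23 at day 6 and 0 to 1 at day 9, and 0 to 17 in MEFs at day 0 and 0 to 1 at day 12 (1 without DKO replicate 2). In WT it gave 31 to 36, 10 to 19 and 2 to 5 (5 without WT replicate 3 of day 9) for the preadipocyte steps, 29 to 37, 0 to 1 (1 without WT replicate 1 of day 4) and 3 to 26 (3 without WT replicate 1 or 2 of day 12) for the MEF steps and 12 to 14 for the cell types. In the interactions it gave 0 to 2 for preadipocyte day 6 (2 without WT replicate 2 of day 6), 0 to 1 for MEF day 4 (1 without DKO replicate 1 of day 0) and 3 to 19 for MEF day 12. No scaling turned the sign of a median over the genes. Depth limits the genes near 1 CPM, which rest on few reads.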
